A study of Homo sapiens with 11 samples.

Results

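The genes described here are the collagens and the enzymes that modify collagen chains, in liver tumours grown from human pancreatic cancer cells with and without knockdown of NPTX1. Members were taken by symbol from the authors' deposited table: every collagen chain gene (COL, number, A, number), the prolyl 4-hydroxylase catalytic subunits P4HA1 to P4HA3, the lysyl hydroxylases PLOD1 to PLOD3, the lysyl oxidases LOX and LOXL1 to LOXL4, the collagen galactosyltransferases COLGALT1 and COLGALT2, and the chaperone gene SERPINH1. This gave 58 of 23327 named genes, 44 of them collagen genes and 14 enzyme or chaperone genes. The rule used symbols only and no measured value.

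The knockdown groups were tumours of PANC1 LM3 cells expressing the hairpin shNPTX1_3 (3 libraries) or shNPTX1_4 (4 libraries), with the genotype given as NPTX1 knock down. The control group was tumours of the same cells expressing shCTRL (4 libraries), with the genotype given as WT. PANC1 is an established cell line from a human pancreatic ductal carcinoma and LM3 the third liver-metastatic generation of it, so that all 3 groups derive from 1 line. Splenic injection of 500000 cells was done on day 1 and liver tumours were taken on day 21, with the host, the vector and the animal behind each library not given in the sources used here. The libraries are labelled as biological replicates, and p-values measure only how these libraries differ from each other, part of which may be technical. Reads on genes, recovered from the size of single-read steps in the group means, ran from 10800000 to 24000000 per shNPTX1_3 library, from 16600000 to 26100000 per shNPTX1_4 library and from 13000000 to 41200000 per shCTRL library. The targeted gene NPTX1 averaged 46.5 normalized counts in shNPTX1_3, 38.4 in shNPTX1_4 and 103 in shCTRL in the authors' deposited table, with log2 fold change -1.26 ± 0.24 (SE) and DESeq2 adjusted p 3.65e-06.

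Collagens are extracellular proteins whose chains wind around each other over stretches of Gly-X-Y repeats, where X is often proline and Y hydroxyproline. Fibrillar collagens form the cables of connective tissue, type IV collagens the sheet of basement membranes, FACIT collagens decorate fibrils, and type VI collagen forms beaded filaments around cells. In the endoplasmic reticulum the chains are hydroxylated on proline by prolyl 4-hydroxylases and on lysine by lysyl hydroxylases, some hydroxylysines receive galactose, and SERPINH1 (HSP47) holds the folded molecule; outside the cell lysyl oxidases cross-link the assembled fibres. Pancreatic ductal carcinoma is known for a dense collagen-rich stroma, most of which is attributed to fibroblasts, while carcinoma cells also make collagens.

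Promoter sequences of some of the type IV and called enzyme genes are shown first, because each type IV pair shares the stretch between its starts and because the enzyme genes moved in opposite directions. The enzyme genes shown are those of the called ones that hold ACGTG. All sequences were read from RefSeq (GRCh38.p14) as the 250 bases before the annotated start, 5′ to 3′ on the gene's strand. Capitals mark ACGTG, the core bound by hypoxia-inducible factors, and GGGCGG, a GC box, each on either strand (CACGT and CCGCCC on the other). The COL4A5 window (chrX:108439588-108439837, plus strand) and the COL4A6 window (chrX:108439459-108439708, minus strand) face away from each other, overlap, and hold neither motif nor TATAAA.
COL4A5: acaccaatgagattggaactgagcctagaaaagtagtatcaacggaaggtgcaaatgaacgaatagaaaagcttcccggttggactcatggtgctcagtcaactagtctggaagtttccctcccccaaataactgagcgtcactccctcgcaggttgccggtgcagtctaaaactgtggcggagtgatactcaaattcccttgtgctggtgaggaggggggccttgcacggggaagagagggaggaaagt
COL4A6: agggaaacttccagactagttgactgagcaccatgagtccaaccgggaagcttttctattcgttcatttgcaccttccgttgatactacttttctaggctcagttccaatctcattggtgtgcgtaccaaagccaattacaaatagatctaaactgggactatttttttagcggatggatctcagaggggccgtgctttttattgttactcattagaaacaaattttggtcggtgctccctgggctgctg
The starts of COL4A1 and COL4A2 lie 126 bases apart (chr13:110307158-110307283, plus strand), and this stretch is 80.2% G or C with 1 GC box.
COL4A1-COL4A2: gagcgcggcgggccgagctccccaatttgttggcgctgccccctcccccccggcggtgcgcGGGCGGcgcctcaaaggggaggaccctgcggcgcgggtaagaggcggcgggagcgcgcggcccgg
The windows of PLOD2 (chr3:146161185-146161434, minus strand), P4HA1 (chr10:73096867-73097116, minus strand) and LOX (chr5:122078260-122078509, minus strand) hold 2, 1 and 4 ACGTG matches, and that of P4HA1 also holds 1 TATAAA, left in lower case.
PLOD2: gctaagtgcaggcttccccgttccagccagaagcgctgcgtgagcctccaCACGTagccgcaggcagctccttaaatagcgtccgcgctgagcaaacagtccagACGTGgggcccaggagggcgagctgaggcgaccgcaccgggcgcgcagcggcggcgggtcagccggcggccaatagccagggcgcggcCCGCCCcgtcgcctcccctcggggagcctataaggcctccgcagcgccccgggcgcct
P4HA1: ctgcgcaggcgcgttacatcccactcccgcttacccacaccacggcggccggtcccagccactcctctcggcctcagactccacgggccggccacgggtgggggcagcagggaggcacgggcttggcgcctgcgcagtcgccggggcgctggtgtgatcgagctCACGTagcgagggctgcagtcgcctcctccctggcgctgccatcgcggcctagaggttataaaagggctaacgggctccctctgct
LOX: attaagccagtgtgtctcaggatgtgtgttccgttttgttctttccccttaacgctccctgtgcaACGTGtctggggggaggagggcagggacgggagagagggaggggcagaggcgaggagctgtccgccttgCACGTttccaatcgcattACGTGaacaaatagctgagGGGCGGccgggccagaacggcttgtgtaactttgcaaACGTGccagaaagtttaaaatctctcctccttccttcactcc
PLOD2 and P4HA1 were higher and LOX was lower in the knockdown tumours. Among the 43 members with a RefSeq promoter, the 300-base window from 250 before to 50 after the start held ACGTG on either strand in 10 (23.3%), against 24.9% of 27305 genes. Of the other called enzyme genes, PLOD1, PLOD3 and P4HA2 held no ACGTG in this window, and COLGALT2 had no RefSeq promoter to read. GGGCGG was present in 29 of the 43 (67.4%), against 48.3% of all genes, and TATAAA in 8 (18.6%), against 14.0%. These matches are letters only and carry no measure of binding.

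Of the 58 members, 54 had an adjusted p in the authors' deposited table, which compares the 7 knockdown libraries as 1 group with the 4 shCTRL libraries. Among these, 14 were higher and 6 lower in the knockdown tumours at a DESeq2 adjusted p under 0.05. Over all 18426 named genes with an adjusted p, 15.8% were called higher and 11.5% lower. From the authors' deposited table, the median log2 fold change was 0.10 for the 54 members and -0.01 for all genes. Collagen genes accounted for 10 of the higher and 3 of the lower calls, and enzymes for 4 of the higher and 3 of the lower calls. All 20 called members had a mean of at least 2 CPM (38.6 normalized counts, CPM being normalized counts scaled to the mean library total), a level reached with no group at 0 by 43 of the 58 members; among genes at that level 19.4% were called higher and 13.1% lower. For all 20, the group means of both hairpins lay on the same side of shCTRL, which the pooled call favours by construction. The same held for 5020 of the 5027 called genes among all named genes, so it does not set the members apart. The remaining 34 members with an adjusted p lay between -2.10 and 0.64 in log2 fold change, per the authors' deposited table. COL6A5, COL9A1, COL25A1 and COL28A1 had no adjusted p and group means of at most 2.33 normalized counts.

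**Figure D1:**
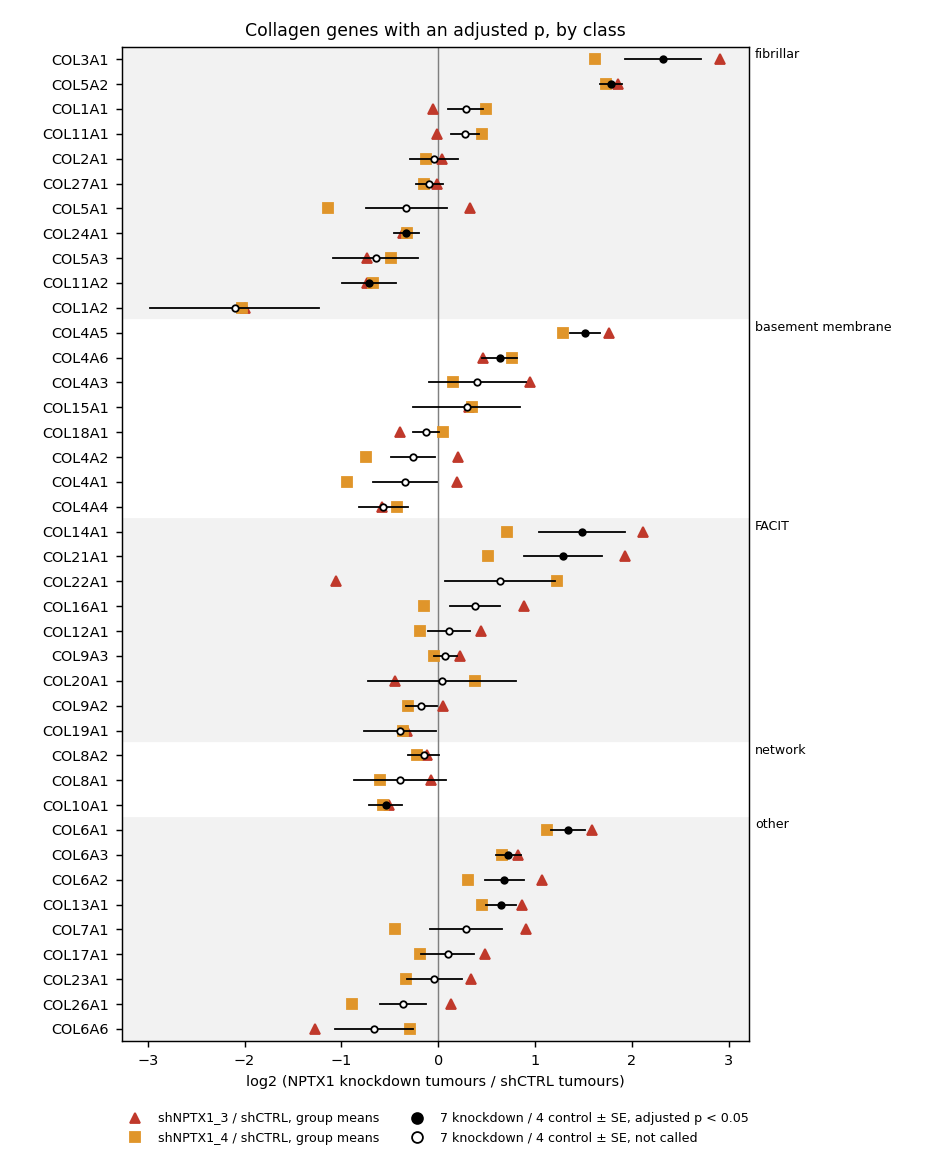
Change of the 40 collagen genes with an adjusted p, grouped by class down the page; the x axis is the log2 ratio of NPTX1 knockdown tumours over shCTRL tumours. Circles with bars are the log2 fold change ± SE in the authors' deposited table over 7 knockdown and 4 control libraries, filled where the adjusted p was under 0.05; triangles (shNPTX1_3) and squares (shNPTX1_4) are ratios of group means with a pseudocount of 1. COL3A1 at 2.32 and COL5A2 at 1.79 lie farthest right, and COL1A2 at -2.10, which was not called, farthest left.

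Among the 11 fibrillar collagens, 2 rose and 2 fell in the knockdown tumours (18.2% each, against 15.8% higher and 11.5% lower over all genes). The median log2 fold change of the class from the authors' deposited table was -0.09. COL5A2, a chain of type V collagen, which takes part in starting fibrils, averaged 14502 normalized counts in shNPTX1_3, 13313 in shNPTX1_4 and 4004 in shCTRL in the authors' deposited table. Both hairpin groups stood near each other and far above shCTRL, a 3.45-fold rise (log2 1.79 ± 0.11 SE, DESeq2 adjusted p 6.69e-54, per the authors' deposited table). COL3A1, the chain of type III collagen, averaged 5517 normalized counts in shNPTX1_3, 2247 in shNPTX1_4 and 731 in shCTRL in the authors' deposited table. It rose 4.99-fold (log2 2.32 ± 0.39, DESeq2 adjusted p 1.11e-07, per the authors' deposited table), with the shNPTX1_3 mean well above that of shNPTX1_4. COL3A1 and COL5A2 are neighbours on chromosome 2 in the reference annotation, with converging transcription and no other protein-coding gene between them.

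The fibrillar genes that fell were low or moderate in level. COL11A2, a chain of the minor cartilage fibril collagen type XI, averaged 45.2 normalized counts in shNPTX1_3, 47.2 in shNPTX1_4 and 76.1 in shCTRL, in the authors' deposited table (log2 fold change -0.72 ± 0.28, DESeq2 adjusted p 0.0392). COL24A1, a fibrillar collagen of developing bone in mice, averaged 178 in shNPTX1_3, 184 in shNPTX1_4 and 230 normalized counts in shCTRL in the authors' deposited table, with log2 fold change -0.33 ± 0.13 (DESeq2 adjusted p 0.0437). This call was lost when p-values were adjusted over every row with a p, at an adjusted p under 0.01, and with at least 1.5-fold required.

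Type I collagen, the main collagen of scar and tumour stroma, is built from COL1A1 and COL1A2 chains, and neither passed the test. COL1A1 averaged 701 normalized counts in shNPTX1_3, 1019 in shNPTX1_4 and 725 in shCTRL in the authors' deposited table (log2 fold change 0.28 ± 0.19, DESeq2 adjusted p 0.256). COL1A2 averaged 17.8 normalized counts in shNPTX1_3, 17.5 in shNPTX1_4 and 74.3 in shCTRL in the authors' deposited table. Per the authors' deposited table its log2 fold change was -2.10 ± 0.87 (DESeq2 adjusted p 0.0559), the widest standard error of the 11 fibrillar collagens. Per kilobase of the longest coding transcript, COL1A1 exceeded COL1A2 by 31.7 times in shNPTX1_3, 46.8 times in shNPTX1_4 and 7.85 times in shCTRL, from the group means of the authors' deposited table. The partner of COL5A2 in type V collagen, COL5A1, split by hairpin: it averaged 1470 normalized counts in shNPTX1_3, 534 in shNPTX1_4 and 1172 in shCTRL in the authors' deposited table (log2 fold change -0.33 ± 0.42, DESeq2 adjusted p 0.596). From the same group means, the COL5A2 to COL5A1 ratio per kilobase was 11.8 in shNPTX1_3, 29.8 in shNPTX1_4 and 4.09 in shCTRL. COL5A2 alone made up 54.6% of fibrillar collagen counts in shNPTX1_3, 58.3% in shNPTX1_4 and 35.8% in shCTRL, as shares of the group means in the authors' deposited table. COL2A1, COL11A1 and COL27A1 lay between -0.09 and 0.28 in log2 fold change, per the authors' deposited table.

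In the basement membrane class 2 of 8 genes rose and 0 fell at a DESeq2 adjusted p under 0.05. These were 25% and 0%, against 15.8% higher and 11.5% lower over all genes. Of the 8, 1 (COL4A4, -0.57, not called) had an unadjusted p under 0.05 with a negative log2 fold change. The genes that rose are the pair read from opposite strands on the X chromosome. COL4A5 averaged 911 normalized counts in shNPTX1_3, 657 in shNPTX1_4 and 268 in shCTRL in the authors' deposited table, a 2.86-fold rise (log2 1.52 ± 0.15, DESeq2 adjusted p 4.83e-21). COL4A6 averaged 109 normalized counts in shNPTX1_3, 134 in shNPTX1_4 and 78.8 in shCTRL in the authors' deposited table (log2 fold change 0.63 ± 0.18, DESeq2 adjusted p 0.00373). Their hairpin order was opposite, and per kilobase COL4A5 exceeded COL4A6 by 8.73 times in shNPTX1_3, 5.09 times in shNPTX1_4 and 3.54 times in shCTRL, from the same group means.

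The main chains of type IV collagen, COL4A1 and COL4A2, are also read head to head, on chromosome 13. COL4A1 averaged 1429 normalized counts in shNPTX1_3, 651 in shNPTX1_4 and 1250 in shCTRL in the authors' deposited table (log2 fold change -0.35 ± 0.33, DESeq2 adjusted p 0.459). COL4A2 averaged 2254 normalized counts in shNPTX1_3, 1168 in shNPTX1_4 and 1954 in shCTRL in the authors' deposited table (log2 fold change -0.26 ± 0.23, DESeq2 adjusted p 0.423). For both genes the shNPTX1_3 mean was a little above shCTRL and the shNPTX1_4 mean well below it, and their ratio per kilobase stayed at 0.622 in shNPTX1_3, 0.547 in shNPTX1_4 and 0.628 in shCTRL. The third pair, COL4A3 and COL4A4 on chromosome 2, was near the lower end of the table. COL4A3 averaged 11.9 normalized counts in shNPTX1_3, 6.41 in shNPTX1_4 and 5.67 in shCTRL in the authors' deposited table (log2 fold change 0.40 ± 0.50, DESeq2 adjusted p 0.583). COL18A1, whose cleavage releases endostatin, held the highest mean of the class and averaged 11871 normalized counts in shNPTX1_3, 16155 in shNPTX1_4 and 15638 in shCTRL in the authors' deposited table (log2 fold change -0.13 ± 0.13, DESeq2 adjusted p 0.495). Its share of all collagen counts was 17.1% in shNPTX1_3, 27.6% in shNPTX1_4 and 36.4% in shCTRL, while that of COL5A2 was 20.8%, 22.8% and 9.32% in shNPTX1_3, shNPTX1_4 and shCTRL. The antisense genes COL18A1-AS1 and COL18A1-AS2 and the gene SLC19A1 overlap COL18A1, and with the counting's strand setting not given in the sources used here, their reads may not be separable.

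Values of single libraries could be rebuilt in all 3 groups for only 3 of 28 members tried, by finding the one set of whole reads that gives each group mean. COL4A4 had 15.9, 19.4 and 24.0 normalized counts in the shNPTX1_3 libraries, 17.0, 20.6, 22.7 and 27.9 in the shNPTX1_4 libraries, and 34.6, 32.9, 25.3 and 27.3 in the shCTRL libraries. Most knockdown libraries lay below every control library, but the highest shNPTX1_4 library exceeded 2 control libraries, so the groups overlapped. COL4A4 averaged 21.1 ± 4.18 normalized counts in the knockdown libraries (SD, n = 7) and 30.0 ± 4.42 in shCTRL (SD, n = 4), with a two-sided exact permutation p of 0.0182, or 0.0545 after Benjamini-Hochberg adjustment over the 3 genes. Type V chain COL5A3 had 4.17, 6.47 and 7.39 normalized counts in shNPTX1_3, 11.1, 7.85, 6.81 and 3.49 in shNPTX1_4, and 9.10, 13.2, 7.59 and 12.9 in shCTRL. Its groups overlapped as well, with 6.75 ± 2.51 in the knockdown libraries (SD, n = 7) and 10.7 ± 2.78 in shCTRL (SD, n = 4), an exact permutation p of 0.0485 and an adjusted value of 0.0727. COL15A1, a basement membrane collagen related to COL18A1, had 6.68, 4.85 and 9.24 normalized counts in shNPTX1_3, 9.62, 11.8, 5.67 and 1.16 in shNPTX1_4, and 7.28, 7.59, 5.06 and 1.44 in shCTRL, and its groups overlapped, although 3 of the 7 knockdown libraries lay above every shCTRL library (exact permutation p 0.448, n = 7 and 4). None of the 3 genes passed after adjustment. None passed the main test either, with DESeq2 adjusted p of 0.0783 for COL4A4, 0.271 for COL5A3 and 0.729 for COL15A1 in the authors' deposited table. The smallest permutation p that this design allows is 0.00303, and a COL15A1 or COL5A3 library rests on 1 to 26 reads.

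**Figure D2:**
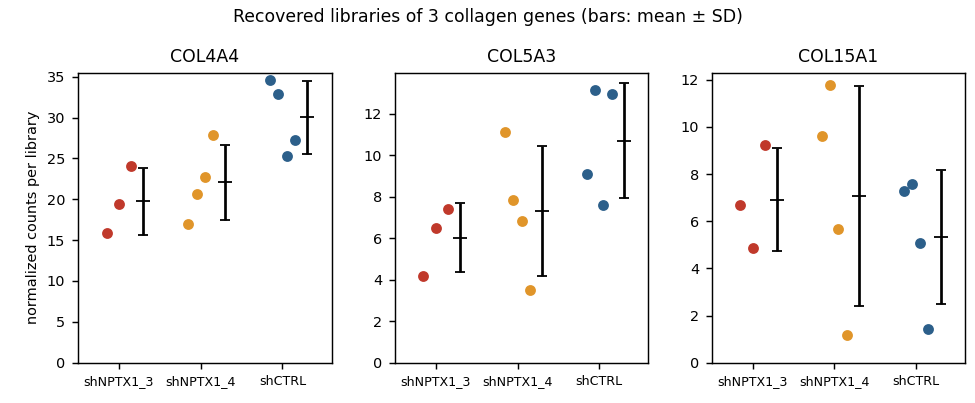
Normalized counts per library (y axis, from 0) of COL4A4, COL5A3 and COL15A1, with 3 shNPTX1_3, 4 shNPTX1_4 and 4 shCTRL libraries as points and the mean ± SD as bars. The COL4A4 points run from 15.9 to 27.9 in the knockdown tumours and from 25.3 to 34.6 in shCTRL.

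Of 10 FACIT collagens, 9 had an adjusted p, 2 rose (22.2%, against 15.8% of all genes) and 0 fell (against 11.5%) at a DESeq2 adjusted p under 0.05, and 0 fell at an unadjusted p under 0.05. COL14A1, which binds the surface of fibrils, averaged 308 normalized counts in shNPTX1_3, 115 in shNPTX1_4 and 70.3 in shCTRL in the authors' deposited table (log2 fold change 1.49 ± 0.44, DESeq2 adjusted p 0.00543). COL21A1, a FACIT collagen reported in vessel walls, averaged 1897 normalized counts in shNPTX1_3, 709 in shNPTX1_4 and 497 in shCTRL in the authors' deposited table (log2 fold change 1.29 ± 0.40, DESeq2 adjusted p 0.00804). The ratio to shCTRL was larger in shNPTX1_3: the log2 ratio of group means was 2.11 for COL14A1 and 1.93 for COL21A1 there, against 0.71 and 0.51 in shNPTX1_4, with no test of the difference. COL22A1, found at tissue junctions such as that of muscle and tendon, went the other way between the hairpins: it averaged 33.6 normalized counts in shNPTX1_3, 167 in shNPTX1_4 and 70.8 in shCTRL in the authors' deposited table (log2 fold change 0.64 ± 0.57, DESeq2 adjusted p 0.425). COL9A3, a type IX chain and the class's highest by mean, averaged 2029 normalized counts in shNPTX1_3, 1686 in shNPTX1_4 and 1742 in shCTRL in the authors' deposited table (log2 fold change 0.07 ± 0.12, DESeq2 adjusted p 0.690). The other 5 tested FACIT genes lay between -0.39 and 0.38 in log2 fold change, per the authors' deposited table.

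Type VI collagen rose in all of its widely used chains. COL6A1 averaged 10117 normalized counts in shNPTX1_3, 7298 in shNPTX1_4 and 3354 in shCTRL in the authors' deposited table, a 2.54-fold rise (log2 1.34 ± 0.18, DESeq2 adjusted p 3.00e-12). COL6A2, its neighbour on chromosome 21, averaged 5422 normalized counts in shNPTX1_3, 3196 in shNPTX1_4 and 2582 in shCTRL in the authors' deposited table (log2 fold change 0.68 ± 0.20, DESeq2 adjusted p 0.00416). COL6A3, the long chain of the same molecule, averaged 442 normalized counts in shNPTX1_3, 393 in shNPTX1_4 and 249 in shCTRL in the authors' deposited table (log2 fold change 0.72 ± 0.13, DESeq2 adjusted p 5.19e-07). The chains are joined in equal numbers in the type VI molecule. Per kilobase of the longest coding transcript, COL6A1 and COL6A2 were near each other in shCTRL, while COL6A3 was far lower in every group. COL6A1 exceeded COL6A2 by 1.52 times in shNPTX1_3, 1.87 times in shNPTX1_4 and 1.06 times in shCTRL. It exceeded COL6A3 by 58.0 times in shNPTX1_3, 47.1 times in shNPTX1_4 and 34.2 times in shCTRL. Which transcript of each gene was expressed was not tested. COL6A6, an alternative to COL6A3, averaged 5.29 normalized counts in shNPTX1_3, 11.4 in shNPTX1_4 and 14.2 in shCTRL in the authors' deposited table and was not called (DESeq2 adjusted p 0.213).

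Of the transmembrane collagens, COL13A1 rose, with 698 normalized counts in shNPTX1_3, 523 in shNPTX1_4 and 381 in shCTRL in the authors' deposited table (log2 fold change 0.65 ± 0.16, DESeq2 adjusted p 0.000505). COL17A1 and COL23A1 did not pass; the authors' deposited table gives log2 fold changes 0.10 and -0.04. COL7A1, the anchoring fibril collagen under epithelia, averaged 2883 normalized counts in shNPTX1_3, 1133 in shNPTX1_4 and 1542 in shCTRL in the authors' deposited table (log2 fold change 0.29 ± 0.38, DESeq2 adjusted p 0.606), with the hairpins on opposite sides of shCTRL. Of the 3 network collagens 1 fell (33.3%, against 11.5% of all genes). This gene, COL10A1, known from cartilage that is turning to bone, averaged 72.9 normalized counts in shNPTX1_3, 69.9 in shNPTX1_4 and 104 in shCTRL in the authors' deposited table (log2 fold change -0.54 ± 0.17, DESeq2 adjusted p 0.00754). The 3 COL10A1 libraries of shNPTX1_3, which could be rebuilt, held 69.3, 79.2 and 70.2 normalized counts, a narrow spread below the shCTRL mean. NT5DC1 lies over COL10A1 on the opposite strand, so that the 2 genes may share reads.

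The classes differ in the make-up of the helix, by translation of the annotated coding sequences (GENCODE 29). The longest unbroken Gly-X-Y run was 216 to 342 triplets in the fibrillar collagens, 30 to 66 in the basement membrane collagens, 32 to 113 in the FACIT collagens, 59 to 60 in the network collagens and 23 to 87 in the others. COL3A1 held the longest run of the 44 collagen genes with 342 triplets, and COL5A2 339, but COL1A2 had 339 as well. The genes that rose therefore spanned most of the range of helix length, down to 32 in COL14A1.

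Among the 14 enzyme and chaperone genes, 4 rose (28.6%, against 15.8% of all genes) and 3 fell (21.4%, against 11.5%). Risen were 2 of 3 prolyl 4-hydroxylase subunits and 2 of 3 lysyl hydroxylases, while COLGALT2, LOX and PLOD1 fell. P4HA1, the main catalytic subunit, averaged 4250 normalized counts in shNPTX1_3, 4401 in shNPTX1_4 and 3224 in shCTRL in the authors' deposited table (log2 fold change 0.43 ± 0.10, DESeq2 adjusted p 0.000144). P4HA2, which forms the same enzyme with another substrate preference, averaged 1184 normalized counts in shNPTX1_3, 954 in shNPTX1_4 and 821 in shCTRL in the authors' deposited table (log2 fold change 0.36 ± 0.14, DESeq2 adjusted p 0.0449). This call was lost when each group was scaled to the same total, at a log2 fold change of 0.29, and under the same 3 alternatives as COL24A1. P4HA3 was not called: the authors' deposited table gives a log2 fold change of 0.23 ± 0.13 (DESeq2 adjusted p 0.188).

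PLOD2 hydroxylates lysines in the end peptides of collagen, the sites from which stable cross-links grow, while PLOD1 acts in the helix. PLOD2 averaged 16528 normalized counts in shNPTX1_3, 8687 in shNPTX1_4 and 5157 in shCTRL in the authors' deposited table, a 2.34-fold rise (log2 1.22 ± 0.23, DESeq2 adjusted p 1.87e-06). PLOD1 averaged 4927 normalized counts in shNPTX1_3, 4155 in shNPTX1_4 and 5569 in shCTRL in the authors' deposited table, a small fall (log2 fold change -0.31 ± 0.10, DESeq2 adjusted p 0.0136). Per kilobase, the PLOD2 to PLOD1 ratio of the group means was 2.64 in shNPTX1_3, 1.65 in shNPTX1_4 and 0.729 in shCTRL, so that PLOD2 was above PLOD1 in both knockdown groups and below it in the controls. PLOD2 made up 72.0% of lysyl hydroxylase counts in shNPTX1_3, 60.8% in shNPTX1_4 and 43.3% in shCTRL. PLOD3, which can also add both sugars to hydroxylysine, averaged 1510 normalized counts in shNPTX1_3, 1444 in shNPTX1_4 and 1194 in shCTRL in the authors' deposited table (log2 fold change 0.30 ± 0.08, DESeq2 adjusted p 0.00214); ZNHIT1 overlaps it on the opposite strand.

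The galactosyltransferases parted. COLGALT2 averaged 220 normalized counts in shNPTX1_3, 196 in shNPTX1_4 and 692 in shCTRL in the authors' deposited table, a fall to 0.298 of the control level (log2 fold change -1.75 ± 0.10, DESeq2 adjusted p 2.43e-63), the lowest adjusted p of all members. COLGALT1, the widely expressed enzyme of the same step, averaged 1595 normalized counts in shNPTX1_3, 1673 in shNPTX1_4 and 1609 in shCTRL in the authors' deposited table and was not called (log2 fold change 0.03 ± 0.08, DESeq2 adjusted p 0.838; -0.04 after scaling the groups to equal totals). COLGALT1 made up 87.9% of the counts of both genes in shNPTX1_3, 89.5% in shNPTX1_4 and 69.9% in shCTRL.

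Of the 5 lysyl oxidases, which start collagen and elastin cross-links, 1 fell and 0 rose at a DESeq2 adjusted p under 0.05. These were 20% and 0%, against 11.5% lower and 15.8% higher over all genes. At an unadjusted p under 0.05 also 0 rose. LOX averaged 81.4 normalized counts in shNPTX1_3, 72.2 in shNPTX1_4 and 132 in shCTRL in the authors' deposited table (log2 fold change -0.82 ± 0.18, DESeq2 adjusted p 5.33e-05); SRFBP1 overlaps it on the opposite strand. LOXL2, the highest of the family, averaged 1748 normalized counts in shNPTX1_3, 1020 in shNPTX1_4 and 1015 in shCTRL in the authors' deposited table (log2 fold change 0.39 ± 0.21, DESeq2 adjusted p 0.159), with the shNPTX1_4 mean close to that of shCTRL. LOXL1 (256, 164 and 184) and LOXL4 (274, 144 and 155 normalized counts in shNPTX1_3, shNPTX1_4 and shCTRL in the authors' deposited table) also had their highest mean in shNPTX1_3, with the shNPTX1_4 mean below that of shCTRL, and neither was called. Their shNPTX1_3 libraries, which could be rebuilt, held 235, 247 and 285 normalized counts for LOXL1 and 276, 288 and 259 for LOXL4. SERPINH1, the collagen chaperone, averaged 3003 normalized counts in shNPTX1_3, 2217 in shNPTX1_4 and 2105 in shCTRL in the authors' deposited table and was not called (log2 fold change 0.28 ± 0.14, DESeq2 adjusted p 0.128).

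**Figure D3:**
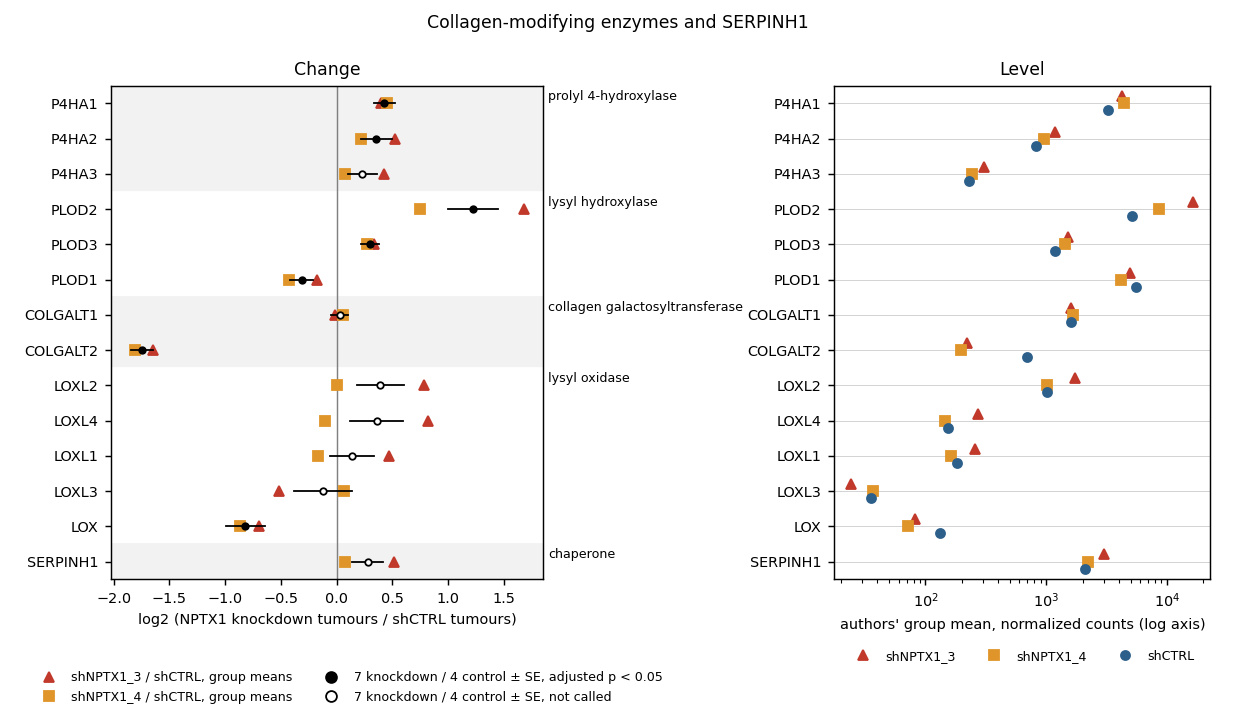
Left, log2 change of the enzyme and chaperone genes, with circles ± SE from the authors' deposited table (filled where the adjusted p was under 0.05) and triangles and squares for the shNPTX1_3 and shNPTX1_4 group means over shCTRL. Right, the group means in normalized counts on a log axis; COLGALT2 and PLOD2 show the widest gaps to shCTRL, at log2 fold changes of -1.75 and 1.22.

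The 2 hairpin groups were then set against shCTRL separately, as ratios of group means with a pseudocount of 1, with no test because single libraries are not in the file. In shNPTX1_3, 8 of the 43 members at 2 CPM or more were at least 2-fold above shCTRL, against 2.95% of 14131 genes, and 2 were at least 2-fold below it, against 1.51%. The 8 were COL3A1, COL14A1, COL21A1, COL5A2, COL4A5, PLOD2, COL6A1 and COL6A2, and the 2 were COL22A1 and COLGALT2. In shNPTX1_4, 5 members were at least 2-fold above shCTRL, against 1.47% of genes, and 2 were below, against 1.24%. The 5 were COL5A2, COL3A1, COL4A5, COL22A1 and COL6A1, and the 2 were COLGALT2 and COL5A1. The median log2 ratio of the 43 members to shCTRL was 0.40 in shNPTX1_3 and 0.01 in shNPTX1_4, while over all genes it was 0.01 and 0.02. Both comparisons use the same control libraries.

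Set directly against each other, the shNPTX1_3 mean was above the shNPTX1_4 mean for 34 of the 43 members (79.1%), against 47.5% of all genes, with a median log2 ratio of 0.35 in members and -0.02 in all genes. At least 2-fold higher in shNPTX1_3 were 8 members, against 1.82% of genes: COL5A1, COL21A1, COL14A1, COL7A1, COL3A1, COL4A1, COL16A1 and COL26A1. COL22A1 was the only one of the 43 members at least 2-fold lower in shNPTX1_3 than in shNPTX1_4, against 0.863% of genes. COL16A1, a FACIT collagen, averaged 467 normalized counts in shNPTX1_3, 227 in shNPTX1_4 and 252 in shCTRL in the authors' deposited table. COL26A1 averaged 507 in shNPTX1_3, 249 in shNPTX1_4 and 463 normalized counts in shCTRL in the authors' deposited table. The 3 shNPTX1_3 and 4 shNPTX1_4 libraries cannot be compared gene by gene for most members, and it was not tested whether 1 library carries these ratios.

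**Figure D4:**
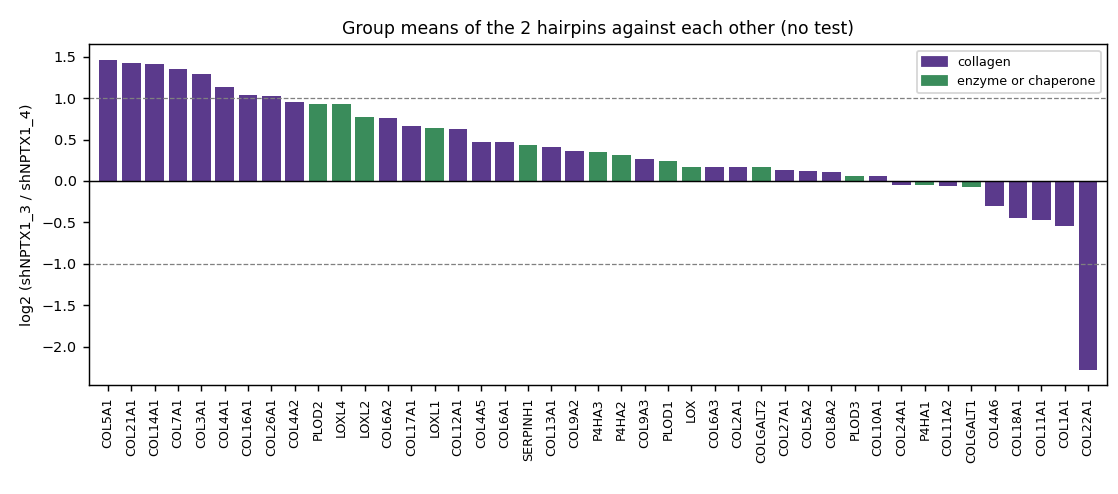
Log2 ratio of the shNPTX1_3 over the shNPTX1_4 group mean (y axis) for the 43 members at 2 CPM or more, in descending order, with collagens in purple and enzymes and the chaperone in green; dashed lines mark 2-fold. Bars stand above 0 for 34 genes, and COL22A1 has the longest bar below 0.

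The other genes of collagen production, sensing and breakdown were read from lists by function. Beside every list that follows stand the shares over all named genes with an adjusted p, 15.8% called higher and 11.5% lower. Among genes at 2 CPM or more these shares were 19.4% and 13.1%. Of 10 partner genes in the endoplasmic reticulum, 6 rose and 1 fell, and the list's median log2 fold change, from the authors' deposited table, was 0.23. P4HB, the subunit that the collagen prolyl 4-hydroxylases share, averaged 10202 normalized counts in shNPTX1_3, 10404 in shNPTX1_4 and 7375 in shCTRL in the authors' deposited table (log2 fold change 0.48 ± 0.07, DESeq2 adjusted p 4.06e-11). P3H2, a prolyl 3-hydroxylase of basement membrane collagen, averaged 636 normalized counts in shNPTX1_3, 372 in shNPTX1_4 and 211 in shCTRL in the authors' deposited table (log2 fold change 1.20 ± 0.23, DESeq2 adjusted p 4.41e-06). PPIB and P3H1, of the prolyl 3-hydroxylation complex, the isomerase FKBP14 and the ion channel TMEM38B also rose, at 0.39, 0.16, 0.29 and 0.33, while P3H3, a partner in lysyl hydroxylation in mice, fell at -0.63, all log2 fold changes in the authors' deposited table. Of 9 genes of the secretory pathway 5 rose and 0 fell by the DESeq2 test (0 at an unadjusted p under 0.05): SAR1B, SEC13, SEC24D and SEC23A, of the vesicle coat that carries procollagen out of the endoplasmic reticulum, at 0.41, 0.44, 0.35 and 0.32, and MIA3 (TANGO1), which loads procollagen into it, at 0.23, all log2 fold changes in the authors' deposited table.

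Of the 9 tested procollagen-processing genes 2 fell and 0 rose by the DESeq2 test (1 at an unadjusted p under 0.05). ADAMTS14, which removes the amino-terminal propeptide, averaged 28.1 normalized counts in shNPTX1_3, 24.5 in shNPTX1_4 and 69.5 in shCTRL in the authors' deposited table (log2 fold change -1.44 ± 0.21, DESeq2 adjusted p 2.14e-10), and PCOLCE2, an enhancer of carboxy-terminal cleavage, had a log2 fold change of -0.34 ± 0.13. Of 10 collagen receptors 3 rose and 1 fell, and the subunits of the collagen-binding integrins moved apart. ITGA2 averaged 3918 normalized counts in shNPTX1_3, 2776 in shNPTX1_4 and 1454 in shCTRL in the authors' deposited table (log2 fold change 1.17 ± 0.16, DESeq2 adjusted p 7.85e-12). ITGA1, the other widely used collagen-binding subunit, averaged 112 normalized counts in shNPTX1_3, 118 in shNPTX1_4 and 228 in shCTRL in the authors' deposited table (log2 fold change -0.99 ± 0.12, DESeq2 adjusted p 1.35e-13). Their shared partner ITGB1 rose at 0.45 ± 0.10 and ITGA10 at 0.57 ± 0.13, log2 fold changes in the authors' deposited table.

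Of 5 tested collagen-binding proteoglycans, BGN and LUM rose (log2 fold change 0.93 ± 0.31 and 1.16 ± 0.42, per the authors' deposited table), with LUM at no more than 24.1 normalized counts in any group. Of 8 tested collagen-degrading proteases 2 rose and 2 fell. MMP1, a collagenase of fibrillar collagens, averaged 690 normalized counts in shNPTX1_3, 119 in shNPTX1_4 and 31.7 in shCTRL in the authors' deposited table (log2 fold change 3.52 ± 0.74, DESeq2 adjusted p 3.49e-05). MMP2, a gelatinase, rose at 0.83 ± 0.18 and the membrane-bound MMP16 fell at -0.51 ± 0.06, log2 fold changes in the authors' deposited table. MMP13, another collagenase, is listed at 0 in shNPTX1_3, at 1.19 normalized counts in shNPTX1_4 and at 5.96 in shCTRL in the authors' deposited table (adjusted p 0.00462 by DESeq2), so its change rests on very few reads.

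**Figure D5:**
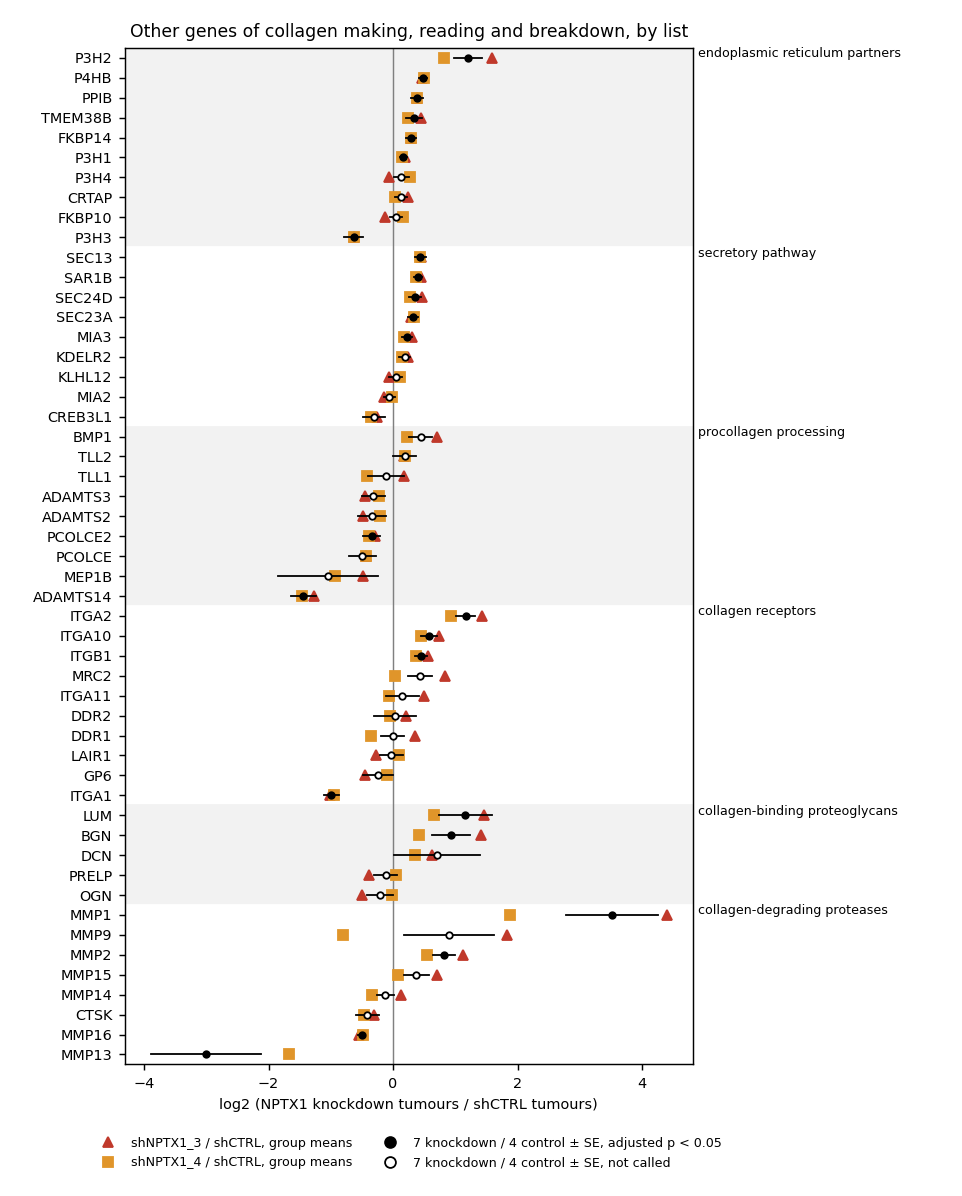
Log2 change over shCTRL of the other genes of collagen production, sensing and breakdown that had an adjusted p, grouped by list down the page, with circles ± SE from the authors' deposited table (filled where the adjusted p was under 0.05), triangles for shNPTX1_3 and squares for shNPTX1_4; no marker is drawn for a group listed at 0. MMP1 at 3.52 and MMP13 at -3.01 lie at the ends.

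In bulk tumour RNA, fewer cells of a type and less RNA per cell cannot be told apart. Marker genes of other cell types were therefore read in the same table. The fibroblast and stellate list had summed levels of 1158 normalized counts in shNPTX1_3, 573 in shNPTX1_4 and 1437 in shCTRL, most of it THY1, and 2 of its 7 tested genes rose (PDGFRA and LUM) and 1 fell (THY1), in the authors' deposited table. Within this list THY1 averaged 860 normalized counts in shNPTX1_3, 383 in shNPTX1_4 and 1222 in shCTRL, ACTA2 163, 75.6 and 128, and RGS5 91.4, 83.7 and 65.2 in the same groups, in the authors' deposited table. LUM averaged 24.1, 13.3 and 8.09 normalized counts in these groups, and DCN, PDGFRA, PDGFRB, FAP and DES were below 8 in every group, in the authors' deposited table. The hepatocyte list summed to 222 in shNPTX1_3, 133 in shNPTX1_4 and 122 normalized counts in shCTRL, with ALB and TTR below 1 in every group and with 2 of 5 tested genes higher (APOA1 and TF). The endothelial list summed to 430.5, 384 and 382 and the leukocyte list to 987, 804 and 896 normalized counts in shNPTX1_3, shNPTX1_4 and shCTRL, with no tested gene of either called by DESeq2 (1 and 0 at an unadjusted p under 0.05) and C1QA at 0 throughout. Most of the endothelial sum was KDR and PECAM1, while CDH5 was low and uneven, at 32.3, 1.80 and 6.88 normalized counts in the same groups. The carcinoma list of keratins, CDH1 and EPCAM summed to 56791 normalized counts in shNPTX1_3, 29042 in shNPTX1_4 and 16162 in shCTRL, most of it KRT8, KRT18 and KRT19. The 4 of its 6 genes that rose were all keratins (KRT7, KRT8, KRT18 and KRT19). EPCAM (438, 548 and 462 normalized counts in the same groups) and CDH1 (620, 210 and 247) were not called. From high to low the order of this sum was shNPTX1_3, shNPTX1_4 and shCTRL. Of the 14 members called higher, all but COL4A6 and P4HA1 had group means in the same order. For COL4A6 and P4HA1 the highest mean was in shNPTX1_4. The injected cells were themselves human, so the sum of a list is not a measure of the cells it is named after. Which cells the reads of these markers came from was not tested, and neither was the part of any list in the collagen results. The submitters' processing notes list a mouse build beside the human one, with the handling of mouse reads not given in the sources used here.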

How the data were processed

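Total RNA of 11 liver tumour libraries was purified with a Norgen kit and made into libraries with the TruSeq kit, version 2, per the labels' protocols. Per the submitters' processing notes, DESeq2 1.24, featureCounts 2.0.0, STAR 2.7.6a and MultiQC 1.9 were used, with the genome builds hg19 and mm39; the roles, the annotation and the strand setting were not given in the sources used here.

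Per the file headers, the authors' deposited table holds group means as a signal (counts divided by size factors, averaged by the authors), a log2 fold change of 7 knockdown over 4 control libraries with its standard error, the Wald statistic (a score), and p-values with adjusted p-values. Read counts per library were not analysed here, so no count test was run, and the authors' DESeq2 test is the main test (adjusted p under 0.05). Benjamini-Hochberg over the rows with an adjusted p gave the deposited adjusted p back within 7.16e-07. Over 16439 rows with at least 10 normalized counts, the log2 fold change differed from the log2 ratio of group means by a median of 0.00401. Of 23434 rows, 107 without a usable gene name were left out (0.387% of mean counts, 23 of them called).

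Hairpin ratios used group means plus a pseudocount of 1 (low genes then show too small a change) at 2 CPM or more with no group at 0, and carry no test. In a group mean a shallow library counts as much as a deep one. Library values were rebuilt where exactly 1 set of whole reads gave a group mean and at most 0.1 sets were expected by chance; the method was tested on simulated data. That analysis was chosen after the data were seen. Lengths and helix runs came from GENCODE 29 gene models and promoters from RefSeq. Scripts used Python 3.11.15, numpy 2.4.6, pandas 2.3.3, scipy 1.17.1 and biopython 1.88.

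The members and lists were chosen with earlier results of these data known. Named were the members called, the member with the highest mean of each class, the type IV pairs and type I chains, members at least 2-fold from control in 1 hairpin, and the called genes of the pathway lists; COL16A1, COL26A1, COL7A1, COL5A3, COL15A1, COL6A6, COL17A1, COL23A1, P4HA3 and the uncalled LOX family genes were added after their values were seen. Alternatives changed the scaling of the groups, the filter on low values, the threshold, the fold and the pseudocount.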

Additional observations from a re-analysis of the deposited data

How the results depend on the processing

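Scaling each group to an equal total of normalized counts, which shifts every log2 fold change by 0.0661, gave 5 collagen genes called lower in place of 3. COL1A2 and COL4A4 were then called, at log2 fold changes of -2.17 and -0.64, P4HA2 was not (0.29), 19 of the 20 calls were kept, and COLGALT1 changed sign to -0.040. At an adjusted p under 0.01, 3 members and 1 collagen gene were called lower, and 16 of the 20 calls were kept, without COL11A2, COL24A1, P4HA2 and PLOD1. At an adjusted p under 0.05 with at least 1.5-fold required, 3 members and 1 collagen gene were called lower, 1 enzyme (PLOD2) was called higher, and 14 calls were kept. Adjusting over every row with a p lost COL24A1 and P4HA2, and adjusting over rows of at least 2 CPM lost none. The number of members at least 2-fold below shCTRL in shNPTX1_3 was 1 with a pseudocount of 10, 4 with no minimum level and 1 with a minimum of 10 CPM, in place of 2. The other 41 recomputed counts stayed within 1.5 times of the value reported.

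No paired analysis was possible because the file holds group means, in which the replicate numbers of the labels do not appear. Leaving out each replicate in turn was not run for the same reason, so it was not tested whether 1 library carries a call. Depth limits the members under 10 normalized counts, where a library holds only a few reads.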

Other observations

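Of low group means of genes with 1 annotated transcript, 84.7% in shNPTX1_3, 90.2% in shNPTX1_4 and 92.1% in shCTRL were whole reads. Of those with more than 1 annotated transcript, 44.2% in shNPTX1_3, 51.9% in shNPTX1_4 and 55.4% in shCTRL were whole. Most collagen genes have several annotated transcripts, and 3 of 28 members tried gave whole reads in all 3 groups.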
